A study of Mus musculus with 12 samples.

Results

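Tartrate-resistant acid phosphatase (TRAP, gene Acp5), the calcitonin receptor (Calcr), the subunits of the alpha v beta 3 integrin (Itgav and Itgb3) and the kinases that act beside that integrin (Src and Ptk2b) were followed in osteoclasts of the mouse. Osteoclasts are multinucleated and resorb bone. The 6 genes were taken by symbol as genes of the mature osteoclast's function from 55414 gene IDs in the count tables. Their values did not enter the rule, but earlier results of these data were known when they were chosen. All 6 passed the filter on low counts and were among the 13403 genes tested. RNA was sequenced from 12 cultures of male mice of 7 to 8 weeks. Macrophages from bone marrow received M-CSF (30 ng/ml), a growth factor of their lineage, and from day 3 also RANKL, which induces osteoclasts, for 4 days. The 4 groups of 3 libraries were wild type with loxP sites around an undeleted Hes1 (Hes1 loxP), Notch2 mutant with Hes1 loxP, wild type with Hes1 deletion, and Notch2 mutant with Hes1 deletion. All groups thus carry an altered Hes1 gene, and none is free of it. The labels name neither the Notch2 mutation nor the way Hes1 was deleted, and they describe replicates as biological without saying whether each came from its own mouse. The p-values measure the spread between these cultures.

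An osteoclast attaches to bone through the alpha v beta 3 integrin, which gathers in podosomes and in the sealing ring around the resorbed area. The bound integrin recruits Src and the related adhesion kinase Pyk2, the product of Ptk2b, which reorganise the actin cytoskeleton, and cells without Src do not resorb normally. TRAP is an iron-containing phosphatase of the lysosome-like vesicles and the resorption space whose enzyme stain is the usual mark of osteoclasts. The calcitonin receptor is a G protein-coupled receptor through which calcitonin stops resorption. Hes1 is a transcriptional repressor whose gene is a classical target of Notch receptors such as Notch2, which act through the DNA-binding protein RBPJ.

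Each library held between 13832368 and 19293772 counts in genes. The osteoclast label was met by the markers: all 12 osteoclast markers listed were detected in each group and their summed level was 31784 to 50891 CPM (counts divided by the library total over genes and multiplied by 1e6). Hes1 itself was scarce, with 23 counts over the 3 wild type libraries and 7 over the 3 Notch2 mutants when loxP-flanked, and 2 in each Hes1 deletion group. Notch2 RNA averaged 166 ± 6.67 CPM (SD, n = 3) in the wild type and 156 ± 11.2 in the Notch2 mutant group with Hes1 loxP, so the Notch2 genotype cannot be read from its level. Wild type Hes1 deletion replicate 3 stood apart from its fellows in several of the 6 genes, and values without it are given beside the Acp5, Itgb3 and Itgav results that it moved.

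In TPM (counts per base of exon, scaled to a library sum of 1e6), which allows levels of different genes to be compared, Acp5 was the most abundant of the 6 by far. Its mean was 13039 TPM over the 12 libraries, and it ranked 4 among the 21275 genes with any TPM in wild type Hes1 loxP libraries. Src followed at 373 TPM with a range of 352 to 402, then Itgb3 at 346 TPM with a range of 275 to 404. The ranges of Src and Itgb3 overlapped, so their order is not beyond the spread between libraries. Itgav came next at 221 TPM, Ptk2b at 84.4 TPM and Calcr at 23.4 TPM, and the ranges of these neighbours did not overlap. Calcr ranked 5684 in wild type Hes1 loxP libraries. The ratio of Acp5 to Calcr TPM was 560 ± 75.3 (SD, n = 12). The exon length joins the exons of all transcripts of a gene, so TPM can be too low where the RNA present is shorter.

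**Figure D1:**
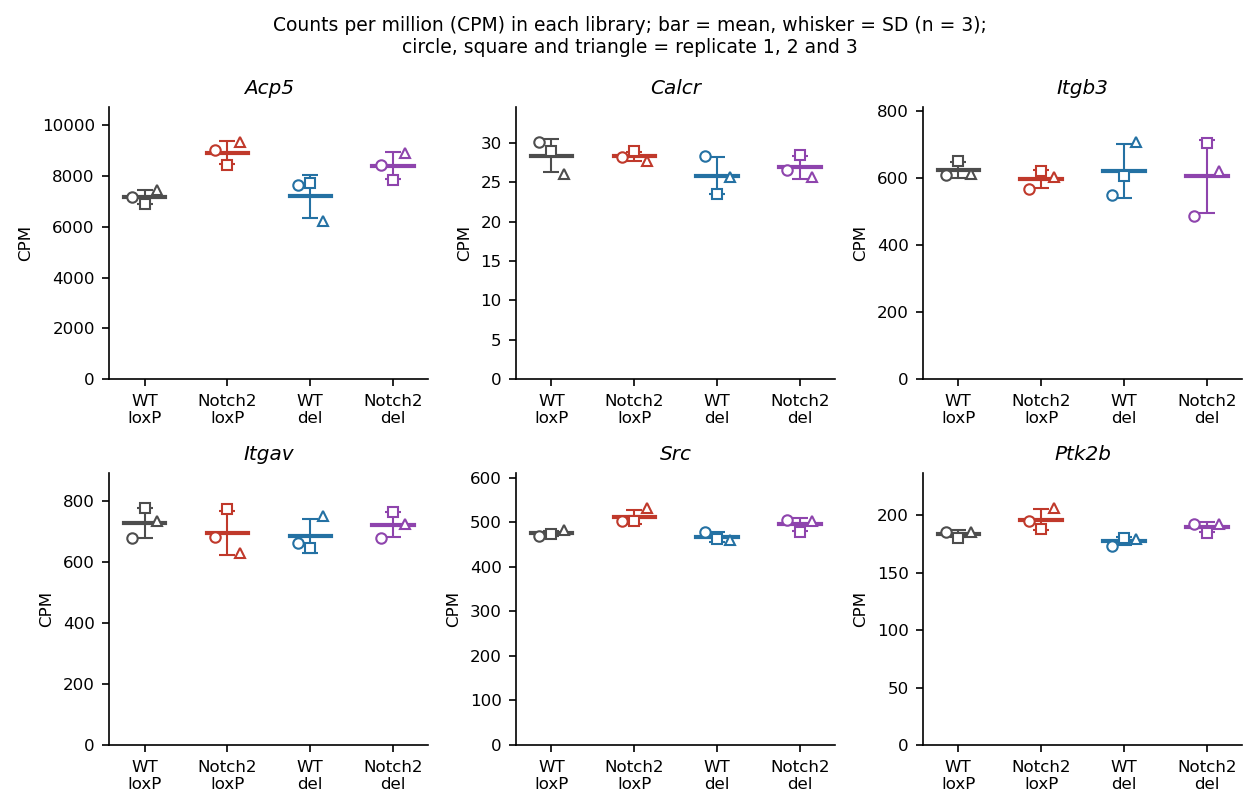
Library-scaled counts (CPM, vertical axis from 0) of the 6 genes in each library of the 4 genotype groups (horizontal axis; loxP = Hes1 loxP, del = Hes1 deletion). Circles, squares and triangles are replicates 1, 2 and 3, thick bars are means and whiskers are 1 SD (n = 3). Acp5 lies between 7855 and 9320.1 CPM in the 6 Notch2 mutant libraries and between 6226 and 7726 CPM in the 6 wild type libraries, while the groups overlap for Itgb3 and Itgav.

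Acp5 was higher in Notch2 mutant than in wild type osteoclasts. Acp5 (ENSMUSG00000001348) lies on chromosome 9 from 22126727 to 22135711 on the minus strand (GRCm38) and has an exon length of 2030 bases. It shares 137 exon bases with the antisense gene 6530413G14Rik, which had 629 counts in all against 1575805 for Acp5. RefSeq lists 3 start sites for it, and the sequences before each (build GRCm38.p6, 5′ to 3′ on the gene's strand) are shown because Acp5 is the gene whose level differed and because the Notch and osteoclast regulators have known recognition letters to look for. The sequence before the Itgav start, a gene whose level did not pass the test, is set beside them. Calcr and Src did not pass it either, and their windows, not printed, did hold matches.

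Acp5 start 1, chr9:22135747-22135996, minus strand: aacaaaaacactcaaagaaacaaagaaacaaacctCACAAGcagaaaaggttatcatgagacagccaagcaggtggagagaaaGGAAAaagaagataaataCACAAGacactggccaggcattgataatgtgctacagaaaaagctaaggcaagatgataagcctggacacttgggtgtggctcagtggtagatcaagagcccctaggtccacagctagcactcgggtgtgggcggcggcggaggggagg
Acp5 start 2, chr9:22131866-22132115, minus strand: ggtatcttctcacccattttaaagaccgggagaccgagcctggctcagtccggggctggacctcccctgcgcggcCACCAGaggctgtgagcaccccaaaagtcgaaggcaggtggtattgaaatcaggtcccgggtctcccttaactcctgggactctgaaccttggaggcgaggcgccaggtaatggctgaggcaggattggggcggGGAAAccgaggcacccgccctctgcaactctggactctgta
Acp5 start 3, chr9:22130609-22130848, minus strand: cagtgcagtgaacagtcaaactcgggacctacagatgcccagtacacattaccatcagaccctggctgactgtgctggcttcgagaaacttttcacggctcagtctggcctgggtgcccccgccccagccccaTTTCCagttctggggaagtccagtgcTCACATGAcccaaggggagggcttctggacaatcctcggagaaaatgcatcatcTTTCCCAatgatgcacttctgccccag
Itgav start 1, chr2:83724147-83724396, plus strand: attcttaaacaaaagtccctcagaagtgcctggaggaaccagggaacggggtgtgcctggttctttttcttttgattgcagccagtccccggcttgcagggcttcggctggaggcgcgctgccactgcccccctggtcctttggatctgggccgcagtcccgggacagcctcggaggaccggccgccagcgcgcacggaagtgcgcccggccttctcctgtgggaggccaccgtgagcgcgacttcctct

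Capitals mark matches, on either strand, to 6 motifs searched in the 250 bases before each start: TGGGAA (RBPJ), CACNAG (the N box of HES repressors), CACGCG (the class C site of HES repressors), TCANGTGA (the M box of MITF and its relatives), GGAAA (NFAT) and TGANTCA (AP-1). Before start 1 of Acp5, 2 N box matches and 1 NFAT match were found, the first of them 215 bases before the start. Before start 2 there were 1 N box match and 1 NFAT match. Before start 3 there were an M box match from 91 to 84 bases before the start, an NFAT match from 117 to 113 bases before it, and an RBPJ match from 36 to 31 bases before it, which overlaps another NFAT match. Of 32817 mouse windows of the same length, 3.46% held the M box, 21.6% the RBPJ letters, 36.7% the N box and 55.6% the NFAT letters. No motif was found before the Itgav start. Windows were listed for 4 of the 6 genes. Those of Calcr held an N box and an NFAT match before start 1 and none before start 2, and the Src window held 1 class C match, letters present in 7.62% of windows. Itgb3 and Ptk2b had no entry. A match is a stretch of letters, not a bound site, and the lack of one says only that these letters are not in the window.

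Acp5 measured 7182, 6878 and 7439.5 CPM in the wild type Hes1 loxP libraries (replicates 1 to 3) and 9027, 8418 and 9320.1 CPM in the Notch2 mutant Hes1 loxP libraries. With Hes1 deletion it measured 7645, 7726 and 6226 CPM in the wild type and 8414, 7855 and 8925 CPM in the Notch2 mutant group. All 3 mutant libraries were above all 3 wild type libraries within each Hes1 state, and all 6 mutant libraries were above all 6 wild type libraries. The lowest value of the 12 was wild type Hes1 deletion replicate 3.

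Averaged over both Hes1 states, Acp5 rose in Notch2 mutant cells by 0.29 ± 0.06 (log2 fold change ± SE), or 1.22-fold with a 95% interval of 1.13 to 1.32 (edgeR quasi-likelihood test, adjusted p = 0.0133 over all genes tested, rank 68 by p). It was the single one of the 6 genes called in this comparison, in which 1.89% of all genes tested were called and 0.768% were called higher. Its groups of 6 did not overlap, which held in this direction for 0.627% of genes. Without wild type Hes1 deletion replicate 3 the difference was 0.23 (edgeR adjusted p = 0.00871). The call ended when replicate 3 of the Notch2 mutant Hes1 deletion group was left out, where the difference was 0.26 (edgeR adjusted p = 0.0551).

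Within Hes1 loxP cells alone, the group means of Acp5 were 7167 ± 281 CPM in wild type cells and 8922 ± 460 CPM in the Notch2 mutants (SD, n = 3). The log2 difference of 0.34 ± 0.08 just missed the threshold (edgeR adjusted p = 0.0509, rank 109 of 13403). None of the 6 genes was called here, where 0.776% of all genes were called and 0.142% were called higher. Other tools placed Acp5 past the threshold: DESeq2 gave an adjusted p of 0.00192 and limma-voom one of 0.0374, each at a difference of 0.34. By edgeR it also passed without wild type Hes1 deletion replicate 1 or 3 (adjusted p = 0.0485 and 0.00407), at a difference of 0.34 and 0.33. Those libraries belong to neither group compared. In 13 of 19 alternative analyses Acp5 stayed uncalled here. Its edgeR adjusted p was 0.0529 with the replicate number as a block and reached 0.204 with a library left out. With Hes1 deleted, the means were 7199 ± 844 and 8398 ± 535 CPM (SD, n = 3), and the log2 difference was 0.23 ± 0.08 (edgeR adjusted p = 0.650). It was 0.13 without wild type Hes1 deletion replicate 3 (adjusted p by edgeR = 0.780). Only 0.0149% of all genes passed the edgeR test in that comparison, in which 6.69% had an unadjusted p under 0.05. The difference between these 2 Notch2 effects on Acp5 was -0.11 with a 95% interval of -0.34 to 0.13 (edgeR interaction term, adjusted p = 0.999), and it was -0.20 without that library (edgeR adjusted p = 0.598). A difference between Hes1 states was not shown.

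Loss of Hes1 was not accompanied by a called change of Acp5. The log2 difference between Hes1 deletion and Hes1 loxP was -0.01 ± 0.08 in wild type cells and -0.12 ± 0.08 in the Notch2 mutants (edgeR adjusted p = 0.992 and 0.977). In wild type cells it was 0.09 without wild type Hes1 deletion replicate 3 (adjusted p by edgeR = 0.730). The comparisons of Notch2 and of Hes1 share groups of libraries and are not independent of each other. Ctsk, which encodes cathepsin K, the main collagen-degrading protease of osteoclasts, behaved otherwise: it averaged 9026 ± 209 CPM in wild type Hes1 loxP and 4586 ± 456 CPM in wild type Hes1 deletion libraries (SD, n = 3), a log2 difference of -0.99 ± 0.07. The ratio of Acp5 to Ctsk TPM was 0.591 ± 0.0206 and 0.625 ± 0.0227 in the wild type and Notch2 mutant Hes1 loxP groups, and 1.17 ± 0.0383 and 1.24 ± 0.0337 in the matching Hes1 deletion groups (SD, n = 3). The labels do not give the way Hes1 was deleted. For Ctsk and these ratios, the method and the loss of Hes1 thus cannot be told apart.

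**Figure D2:**
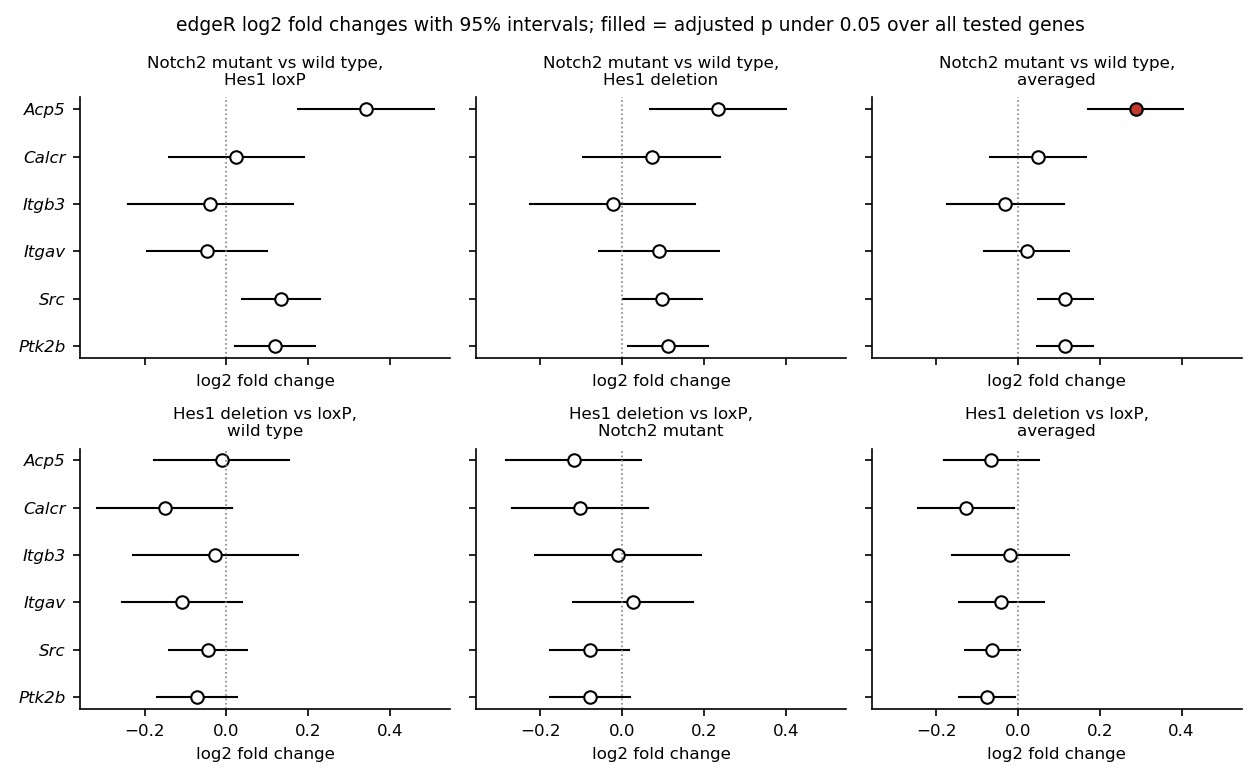
Log2 fold changes (horizontal axis) of the 6 genes (vertical axis) in 6 comparisons from the edgeR fit; points are estimates, lines are 95% intervals, and a filled point has an adjusted p under 0.05 over all genes tested. The filled point is Acp5 for the Notch2 genotype averaged over Hes1 states, at 0.29; the intervals of Src and Ptk2b in that panel lie above 0, and those of Calcr, Itgb3 and Itgav cross it.

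The rise of Acp5 was accompanied by changes in markers of other cells, and in bulk libraries fewer cells of a type and less RNA per cell cannot be told apart. Of the 12 osteoclast markers, 3 are Acp5, Calcr and Itgb3 themselves. Averaged over Hes1 states, their median log2 difference in Notch2 mutant cells was 0.16, against 0.00 for all genes. In that comparison 0.768% of all genes tested were called higher, and of the 12 markers 6 rose and none fell. Besides Acp5 these were Ocstamp and Dcstamp, which encode fusion proteins of the cell surface, the receptor gene Oscar, the gelatinase gene Mmp9 and Ctsk, with log2 differences of 0.18 for Dcstamp to 0.25 for Mmp9 (edgeR adjusted p of 0.0091 to 0.0463). The calls of Ocstamp held in all 18 alternative analyses, and those of Dcstamp, Mmp9 and Ctsk were lost in 10, 6 and 6 of them and that of Oscar in 3. Within a single Hes1 state, 1 of the 12 was called with Hes1 loxP, Ocstamp, and none with Hes1 deletion. Of 17 macrophage and monocyte markers 4 fell and none rose (median -0.15), where 1.12% of all genes tested were called lower. These were Fcgr1 at -0.51, Mrc1 at -0.45, Msr1 at -0.27 and Adgre1 at -0.26 (edgeR adjusted p of 0.0131 to 0.0257). The call of Fcgr1 held in all 18 alternatives, and those of Mrc1, Msr1 and Adgre1 were lost in 4, 1 and 1. The summed level of the macrophage list lay between 11498 and 12558 CPM in the wild type and between 10126 and 11292 CPM in the Notch2 mutant group with Hes1 loxP, and between 11247 and 11597 CPM and between 10889 and 11685 CPM with Hes1 deletion. None of its 17 markers was at 0 in any group.

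Stromal and osteoblast markers were lower in sum as well. They totalled 251 to 296 CPM in the wild type and 117 to 247 CPM in the Notch2 mutant group with Hes1 loxP, and 332 to 349 CPM against 209 to 296 CPM with Hes1 deletion. Of the 12 tested of 15, 1 was called, Cxcl12, which was lower in the Notch2 mutant with Hes1 loxP and averaged over Hes1 states. Cxcl12 was scarce, with 96 counts over all libraries, a mean of 0.472 CPM and a lowest library at 0. Its call with Hes1 loxP was lost in 11 of 17 alternative analyses, and its averaged call held in all 16. Megakaryocyte and platelet markers, listed because those cells also use Itgb3 and Src, summed to 49.7 to 57.3 CPM in the wild type and 32.5 to 36.6 CPM in the Notch2 mutant group with Hes1 loxP. With Hes1 deleted they summed to 34.5 to 40.5 CPM and 31.7 to 39.7 CPM, and Gp1bb was at 0 throughout. Of the 3 tested of 7, 1 was called lower, Pf4, which encodes a platelet chemokine. Its log2 difference was -0.69 ± 0.08 with Hes1 loxP and -0.42 ± 0.06 averaged (edgeR adjusted p = 0.00109 and 0.00217), and the averaged call held in all 18 alternatives. Pf4 averaged 37.4 CPM over all libraries, against 1.62 for Ppbp and 1.09 for Itga2b, so these sums are mostly Pf4. Of the 3 tested, 1 had a positive estimate with Hes1 loxP, Itga2b at 1.33 (edgeR adjusted p = 0.303). Neutrophil markers summed to 255 to 333 CPM in the wild type and 196 to 254 CPM in the Notch2 mutant group with Hes1 loxP. Their sums overlapped with Hes1 deletion, at 190 to 264 CPM in the wild type and 185 to 237 CPM in the Notch2 mutant group. Of the 9 tested of 10 neutrophil markers, 1 was called with Hes1 loxP, the collagenase gene Mmp8 at -0.46 ± 0.10 (edgeR adjusted p = 0.0384, lost in 6 of 19 alternatives), and none averaged. Dendritic and MHC class II markers gave positive averaged estimates for all 7 tested of 9, with a median log2 difference of 0.21, and none was called. With Hes1 loxP all 7 were positive at a median of 0.41. With Hes1 deletion 4 were positive, at a median of 0.02 and with a lowest estimate of -0.50. Lymphocyte and endothelial markers summed to at most 6.27 and 7.04 CPM in any library, and none was called. The part of these cell types in the Acp5 result was not tested.

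Src and Ptk2b, the kinases beside the integrin, were slightly higher in Notch2 mutant cells but did not pass the test. Src (ENSMUSG00000027646, chromosome 2, 157418444 to 157471862, plus strand) encodes the founding member of the Src kinase family. It measured 469, 474 and 482 CPM in the wild type and 503, 502 and 531 CPM in the Notch2 mutant group with Hes1 loxP. After Hes1 deletion its values were 479, 461 and 459.9 CPM in the wild type and 505, 478 and 503 CPM in the Notch2 mutant group. The groups did not overlap with Hes1 loxP and overlapped narrowly with Hes1 deletion.

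Averaged over Hes1 states the log2 difference of Src was 0.12 ± 0.03, with a 95% interval of 0.05 to 0.18 (edgeR adjusted p = 0.0679). It was 0.13 ± 0.05 with Hes1 loxP and 0.10 ± 0.05 with Hes1 deletion (edgeR adjusted p = 0.183 and 0.744). With DESeq2 the averaged difference of 0.11 had an adjusted p of 0.0171. Src varied little between replicates, with a biological coefficient of variation of 0.0417 in the edgeR fit, against 0.0842 for Itgb3.

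Ptk2b (ENSMUSG00000059456, chromosome 14, 66153257 to 66281052, minus strand) encodes Pyk2, an adhesion kinase related to FAK. It measured 186, 181 and 186 CPM in the wild type and 195, 188 and 206 CPM in the Notch2 mutant group with Hes1 loxP. The Hes1 deletion libraries gave 173, 180.1 and 179 CPM in the wild type and 192, 185 and 193 CPM in the Notch2 mutant group. Within each Hes1 state the mutant libraries were all above the wild type libraries, but across Hes1 states the ranges overlapped, the highest wild type library being above the lowest mutant one. The averaged log2 difference was 0.11 ± 0.03, with a 95% interval of 0.05 to 0.18 (edgeR adjusted p = 0.0733, DESeq2 adjusted p = 0.0439). By edgeR it passed without replicate 2 of the Notch2 mutant Hes1 loxP group, at 0.13 (adjusted p = 0.0446).

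With Hes1 loxP, 3 of the 6 genes (Acp5, Src and Ptk2b) had Notch2 mutant libraries that were all above the wild type ones, which was so for 9.83% of all genes tested. With Hes1 deleted it was so for 2 of the 6 (Acp5 and Ptk2b), against 6.06% of genes. Lower Ptk2b in all wild type Hes1 deletion than in all wild type Hes1 loxP libraries, 173 to 180.1 against 181 to 186 CPM, was a separation that 5.17% of genes showed in that direction. Its log2 difference was -0.07 ± 0.05 (edgeR adjusted p = 0.914). These shares were counted on TMM-scaled log2 CPM. On that scale, Src and Calcr were lower in all Notch2 mutant Hes1 deletion than in all Notch2 mutant Hes1 loxP libraries. In that direction 5.47% of genes were apart, and in unscaled CPM the ranges of both genes overlapped. With Hes1 deletion averaged over genotypes, Ptk2b differed by -0.07 ± 0.03 and Src by -0.06 ± 0.03 (edgeR adjusted p = 0.673 and 0.752). The call rate in that comparison was 0.0821% of genes, and none of the 6 genes was among them.

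The alpha v beta 3 integrin subunits showed no called difference in any comparison. Itgb3 (ENSMUSG00000020689, chromosome 11, 104608000 to 104670476, plus strand) encodes beta 3, the subunit that macrophages gain as they become osteoclasts. It measured 607, 651 and 611 CPM in the wild type and 567, 619 and 602 CPM in the Notch2 mutant group with Hes1 loxP. In cells with Hes1 deletion it was at 549, 607 and 706 CPM in the wild type and 488, 705 and 622 CPM in the Notch2 mutant group. The groups overlapped throughout. The highest and the lowest of the 12 values were both in Hes1 deletion groups, where the SD was 79.3 and 109.5 CPM, against 24.0 and 26.5 CPM in the Hes1 loxP groups.

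The averaged Notch2 difference of Itgb3 was -0.03 ± 0.07, and its 95% interval of -0.17 to 0.11 leaves room for a change of up to about 1.08-fold higher or to 0.886 of the wild type level (edgeR adjusted p = 0.877). Without wild type Hes1 deletion replicate 3 the sign turned, to 0.01 (edgeR adjusted p = 0.968). Between Hes1 deletion and Hes1 loxP the log2 difference was -0.03 ± 0.10 in wild type cells and -0.01 ± 0.10 in the Notch2 mutants (edgeR adjusted p = 0.989 and 0.993). In wild type cells it was -0.12 without wild type Hes1 deletion replicate 3 (adjusted p by edgeR = 0.776).

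Itgav (ENSMUSG00000027087, chromosome 2, 83724397 to 83806916, plus strand) encodes alpha v, which pairs with beta 3 and also with beta 1, beta 5 and other beta subunits. Its antisense neighbour Gm13684, with 634 shared exon bases, had 0 counts. It measured 679, 776 and 734 CPM in the wild type and 682, 774 and 630.1 CPM in the Notch2 mutant group with Hes1 loxP. In the Hes1 deletion groups it reached 662, 646 and 750.3 CPM in the wild type and 681, 765 and 724 CPM in the Notch2 mutant group. All 4 groups overlapped. The averaged Notch2 difference was 0.02 ± 0.05, with a 95% interval of -0.08 to 0.13 (edgeR adjusted p = 0.881), and was 0.05 without wild type Hes1 deletion replicate 3.

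Per length, beta 3 RNA exceeded alpha v RNA in all 12 libraries, the ratio of Itgav to Itgb3 TPM being 0.640 ± 0.0546 (SD, n = 12) with a range of 0.575 to 0.767. In CPM the means were the other way round, 709 for Itgav and 611 for Itgb3. The order per length thus rests on exon lengths of 10744 and 5901 bases, joined over 9 and 2 transcripts. Among the beta subunits that can pair with alpha v, Itgb1 was above Itgb3, whose level was 0.694 ± 0.0840 of it, and Itgb5 was well below, Itgb3 being 5.05 ± 0.686 times as high (SD, n = 12). The leukocyte subunit Itgb2 had the highest level of all integrin subunits, 1047 TPM. Among the Src family kinases compared here, Src at 373 TPM was above Lyn at 152, Fgr at 95.5 and Fyn at 19.2 TPM, while Yes1 was at 0.0916 TPM. Ptk2b at 84.4 TPM stood well above Ptk2, which encodes FAK, at 8.30 TPM. The ratio of Src to Ptk2b TPM held between 4.28 and 4.68 in all libraries.

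**Figure D3:**
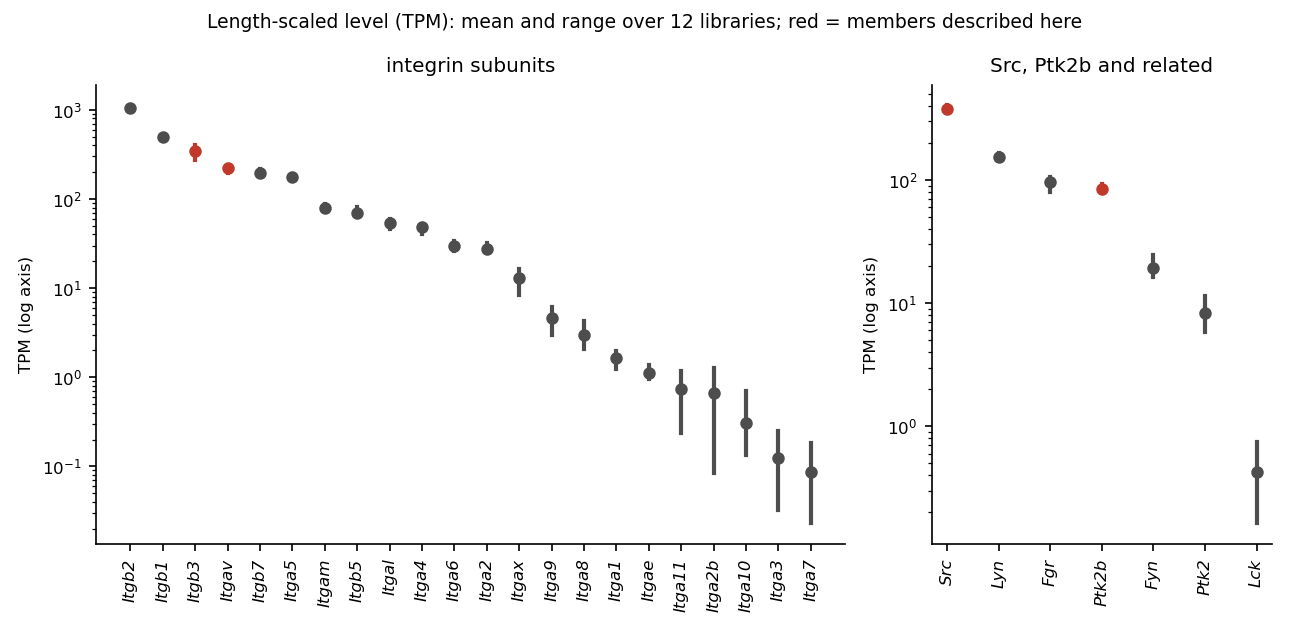
Length-scaled level (TPM, vertical log axis) of integrin subunits (left) and of some Src family kinases with Ptk2b and Ptk2 (right), each gene a point on the horizontal axis at its mean over 12 libraries with a line from the lowest to the highest library; genes with a library at 0 are not drawn. Red points are Itgb3, Itgav, Src and Ptk2b. Itgb3 (346 TPM) and Itgav (221 TPM) rank below Itgb2 and Itgb1, and Src (373 TPM) ranks first among the kinases drawn.

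Calcr was the rarest of the 6 genes and no comparison called it. Calcr (ENSMUSG00000023964, chromosome 6, 3685680 to 3764714, minus strand) hosts the microRNA genes Mir653 and Mir489, which share no exon bases with it. It had 388 to 559 counts per library. It measured 30.1, 29.0 and 26.0 CPM in the wild type and 28.3, 28.9 and 27.7 CPM in the Notch2 mutant group with Hes1 loxP. Once Hes1 was deleted, it measured 28.3, 23.5 and 25.7 CPM in the wild type and 26.6, 28.5 and 25.6 CPM in the Notch2 mutant group. The values of all groups overlapped on this scale. After TMM scaling, all Notch2 mutant Hes1 deletion libraries were below all Notch2 mutant Hes1 loxP libraries, as for 5.47% of genes.

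The averaged Notch2 difference of Calcr was 0.05 ± 0.06, with a 95% interval of -0.07 to 0.17 (edgeR adjusted p = 0.734). For Hes1 deletion averaged over genotypes it was -0.13 ± 0.06, with a 95% interval of -0.24 to -0.01 (edgeR adjusted p = 0.673, unadjusted p = 0.0357). An unadjusted p under 0.05 was reached by 6.89% of all genes in that comparison. The difference was -0.15 ± 0.08 in wild type cells and -0.10 ± 0.08 in the Notch2 mutants (edgeR adjusted p = 0.864 and 0.977). In each of these comparisons 0.0373% of genes were called.

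Across the 12 libraries Acp5, Src and Ptk2b varied together. Over the 15 pairs of the 6 genes, on log2 CPM, the highest correlations were Src with Ptk2b (Pearson's r = 0.917, Benjamini-Hochberg adjusted permutation p = 0.00075; Spearman's rho = 0.839, adjusted p = 0.0109), Acp5 with Src (r = 0.895, adjusted permutation p = 0.000975; rho = 0.825, adjusted p = 0.0109) and Acp5 with Ptk2b (r = 0.828, adjusted permutation p = 0.0057; rho = 0.811, adjusted p = 0.0118). The raw permutation p-values of r were 5e-05, 0.00013 and 0.00114. Libraries were permuted freely across the 4 groups, so these p-values also reflect differences between group means. Without the 2 libraries farthest from the median of the first gene, r was 0.812, 0.824 and 0.737. After the group means were subtracted, r stayed positive, at 0.704, 0.713 and 0.561. No p was computed for these values, so joint movement among replicates was not tested. These libraries differ in depth and culture, and the genes share both.

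Itgb3 and Itgav gave r = 0.547 (permutation p = 0.0624, adjusted 0.234) and rho = 0.671 (permutation p = 0.0203, adjusted 0.0759). Calcr had no pair with an adjusted p under 0.05. Acp5 with Itgb3 gave r = -0.384 (adjusted permutation p = 0.549), and Acp5 with Itgav r = -0.276 (adjusted permutation p = 0.640). After the group means were subtracted these were -0.548 and -0.720. On that scale the value farthest from 0 of the 15 pairs was -0.743, for Itgav with Ptk2b, whose r over all libraries was -0.167 (adjusted permutation p = 0.702).

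**Figure D4:**
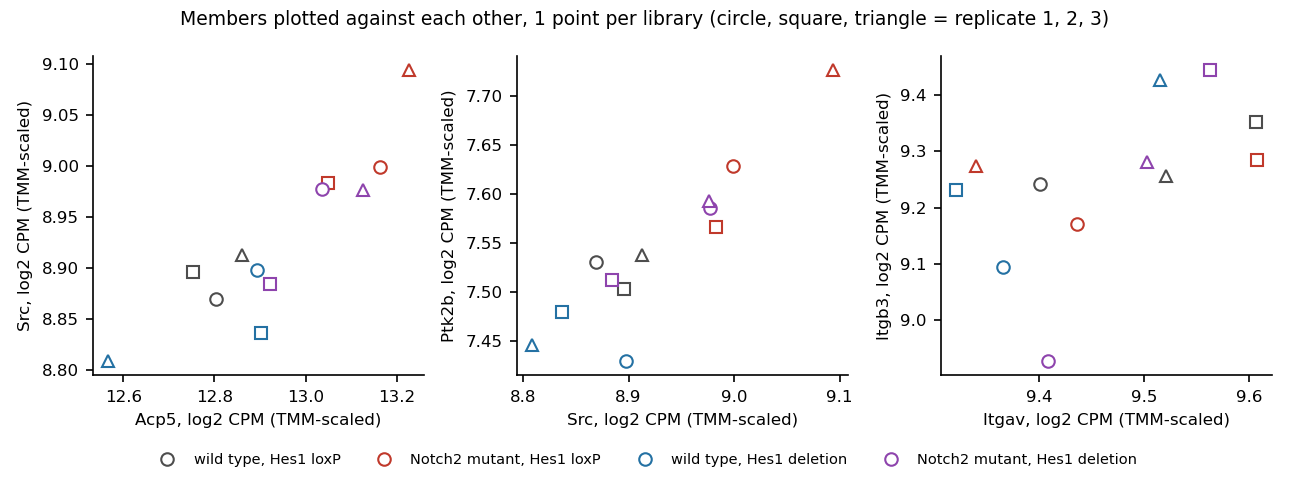
Log2 CPM (TMM-scaled) of 1 gene against another in each of the 12 libraries: Src against Acp5 (left), Ptk2b against Src (middle) and Itgb3 against Itgav (right). Colours are the 4 groups and circles, squares and triangles are replicates 1, 2 and 3. Libraries form a rising band in the left and middle panels (r = 0.895 and 0.917) and scatter more in the right one (r = 0.547).

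The genes whose pattern over the 12 libraries was most like that of each of the 6 were looked up among 10529 tested genes by Pearson's r, as a description. For Acp5 these were Mmp9 (0.98), Hexa, a lysosomal hexosaminidase subunit (0.98), and Atp6v0e, a subunit of the proton pump (0.97), and Tpm3, a tropomyosin, was the most opposite (-0.96). For Src they included Cd63, a tetraspanin of late endosomes (0.97), and Sdha, a subunit of succinate dehydrogenase (0.95). For Ptk2b they were Atp6v0b, also of the proton pump (0.96), Agfg2 (0.94) and Fhl3 (0.92), with Lmnb1, a nuclear lamin, most opposite (-0.91). After the group means were subtracted, over the 12 libraries pooled, r with Mmp9 was 0.97 for Acp5 and r with Cd63 was 0.88 for Src. The likeness of Acp5 to Mmp9 thus did not rest on group means alone, but no genotype group was examined by itself.

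The nearest genes of the other members were of other kinds. For Itgb3 they were Atp2b4, a plasma membrane calcium pump (0.91), Gnl3 (0.90) and H6pd (0.89). For Itgav they were Aak1, an endocytic kinase (0.95), Trim37 (0.92) and Srrm2 (0.90), and Pira2 was the most opposite (-0.92). For Calcr they were Bcl2l13 (0.88), Mtmr4 (0.86) and Smad1 (0.84), lower values than for the other members.

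Around the integrin, few genes passed the test for the Notch2 genotype averaged over Hes1 states. Of 18 other integrin subunits tested of 24, 1 rose and none fell, at a median log2 difference of 0.02. The one was Itgb7, at 0.16 ± 0.04 (edgeR adjusted p = 0.0452), a call lost in 8 of 18 alternative analyses. Of the ligands of alpha v beta 3, 6 of 10 were tested and 2 fell. These were the matricellular genes Tnc, at -0.89 ± 0.07, and Thbs1, at -0.30 ± 0.06 (edgeR adjusted p = 0.0135 for Thbs1, lost in 1 of 18 alternatives). Tnc was also called lower in each Hes1 state alone, by -1.09 with Hes1 loxP and -0.68 with Hes1 deletion, the second call being lost in 2 of 19 alternatives. The gene of osteopontin, Spp1, the most abundant ligand at 1958 TPM, was not called, and the plasma ligand Vtn had 0 counts in all libraries, where 3 counts would be 0.155 to 0.217 CPM.

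Of 16 integrin activators and adaptors, all were tested and none was called (median -0.03). Fermt2, a kindlin, had the largest estimate at -0.65 (edgeR adjusted p = 0.138). Talin 1 and kindlin 3, encoded by Tln1 and Fermt3, were high at 522 and 233 TPM. Of 15 tested other Src family kinases and Src regulators, of 18 listed, 1 fell. It was Ptk2, at -0.32 ± 0.08 (edgeR adjusted p = 0.0491), a call lost in 10 of 18 alternatives. In the opposite direction to Ptk2b, this relative was thus lower in the Notch2 mutant. Of 22 genes of signalling below the integrin and Src, 1 rose, the small GTPase gene Rac2 at 0.17 ± 0.04 (edgeR adjusted p = 0.0499), a call lost in 9 of 18 alternatives.

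Of 11 tested partners, relatives and ligands of the calcitonin receptor, of 16 listed, 1 rose. It was the adenylyl cyclase gene Adcy3, whose enzyme makes the cyclic AMP that such receptors signal with. Its log2 difference was 0.20 ± 0.04 averaged over Hes1 states and 0.24 ± 0.05 with Hes1 loxP (edgeR adjusted p = 0.0125 and 0.0460). The averaged call was lost in 1 of 18 alternatives and that with Hes1 loxP in 10 of 19. The related receptor Calcrl averaged 55.9 TPM, above Calcr. The genes of the RAMP proteins, which change the ligand preference of both receptors, were low, with 291 counts of Ramp1, 33 of Ramp3 and 4 of Ramp2 over all libraries. The ligand genes Calca and Iapp had 0 counts.

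Of 11 tested acid phosphatases, TRAP substrates and lysosomal neighbours, of 13 listed, 1 rose and 1 fell. Ctsk rose by 0.21 ± 0.05, and Ctsl, which encodes cathepsin L, fell by 0.41 on the log2 scale (edgeR adjusted p = 0.0364 and 0.00485). Among regulators of transcription known for these 6 genes, 23 of 24 were tested and 1 rose and 1 fell. Tfec, of the MITF family, was at 0.20 ± 0.05, and Rbpj at -0.16 ± 0.03 (edgeR adjusted p = 0.0328 and 0.0176). Nfatc1, the main transcription factor of osteoclast formation, was at 0.13 (edgeR adjusted p = 0.0602). The call of Tfec was lost in 7 of 18 alternatives and that of Rbpj in 2.

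In the comparisons of Hes1 deletion, the same 8 lists gave 2 called genes, Ctsk and Tnc. Ctsk was lower in the Hes1 deletion groups of both genotypes, with the limit given above. Tnc was higher with Hes1 deletion in Notch2 mutant cells, by 0.64 ± 0.10 (edgeR adjusted p = 0.0169, lost in 4 of 19 alternatives). The interaction of Notch2 genotype and Hes1 deletion called 0 genes by edgeR, of the 6 or of all tested (0%), with 506 genes (3.78%) at an unadjusted p under 0.05 and none of the 6 among them. For the 6 genes the interaction estimates lay between -0.11 for Acp5 and 0.14 for Itgav, and that of Itgav was 0.20 without wild type Hes1 deletion replicate 3. DESeq2 and limma-voom called no gene for the interaction either, and edgeR called 12 without wild type Hes1 deletion replicate 3. For Acp5 its 95% interval reached -0.34, as far from 0 as the Notch2 effect in Hes1 loxP cells.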

How the data were processed

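RNA was measured in 12 mouse osteoclast cultures in 4 groups of 3, taken from the sample labels. Per the labels' protocols, a single pool of stranded mRNA libraries was run with paired-end reads of 75 bp. The authors deposited raw counts for each gene, as whole numbers with no normalization. The build was GRCm38, and the tools named were HTSeq, HISAT2, Picard, SAMtools and DESeq2, per the submitters' processing notes. Their versions, the annotation and any use of strand in counting were not given in the sources used here, and a gene's reads may include those of an overlapping antisense gene. Each table held 55414 gene IDs and 5 summary rows, which held 15.8 to 19.0% of a file's total and entered neither library sizes nor tests. GENCODE M21 named 52133 IDs and left 3281 without a name, with up to 0.167% of the counts in any library. Counts in genes were 13832368 to 19293772 per library. Replicates differed by more than sampling noise (chi-square per gene 2.40 to 8.41), and none was merged. A floor of 3 counts covers counting error only. The design text also names single-cell data, not analysed here.

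All 12 libraries entered 1 edgeR 4.0.16 fit (R 4.3.3) with TMM scaling, a mean per group and filterByExpr (minimum count 10, minimum total 15), which kept 13403 genes. The quasi-likelihood F-test was two-sided, with Benjamini-Hochberg adjustment over all genes tested and a threshold of 0.05, in 7 comparisons: 4 between single groups, the interaction and 2 averaged over the other factor. Standard errors and 95% intervals come from the F statistic. CPM was taken over counts in genes and TPM with exon length per gene. Correlations used TMM-scaled log2 CPM (prior count 2) and 100000 permutations. The fit was tested on simulated data. The 6 genes, the 8 pathway lists and the 8 marker lists were chosen with earlier results of these data known, and counts over them are descriptions. Named were the 6 genes, the called genes of each list with up to 4 of its smallest adjusted p-values, for each of the 6 the 3 most alike and 1 most opposite genes (mean log2 CPM 1 or more, no clone-type name), and Ctsk, Notch2 and Hes1. Levels of Itgb1, Itgb2, Itgb5, Lyn, Fgr, Fyn, Yes1, Calcrl, the RAMP genes, Calca, Iapp, Vtn, Spp1, Tln1 and Fermt3 fall outside this rule and were chosen with their values in view. A few genes that these rules name are not reported here. Promoter sequences are from RefSeq (GRCm38.p6), bases in annotated UTRs left out.

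As alternatives, the scaling was changed to RLE, the filter was dropped or raised to a mean count of 50, DESeq2 1.42.0 or limma-voom (limma 3.58.1) replaced edgeR, the replicate number entered as a block, only the compared groups were fitted, and every library was left out in turn.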

Additional observations from a re-analysis of the deposited data

How the results depend on the processing

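For the log2 differences of the 6 genes in 7 comparisons, 737 of 780 alternative values kept their direction and their side of the threshold, 10 newly passed it, 1 lost it and 32 changed sign, all 32 when a library was left out. Of the 6 genes, 1 instead of 0 was called for Notch2 with Hes1 loxP without the filter, with DESeq2, with limma-voom and with only the groups compared, and 0 to 1 with a library left out. With Hes1 deletion it was 1 instead of 0 without the filter. Averaged over Hes1 states it was 3 instead of 1 with DESeq2 and 0 to 2 with a library left out. The single gene called with Hes1 loxP or Hes1 deletion was Acp5, and DESeq2 added Src and Ptk2b in the averaged comparison.

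With a library left out, the differences that changed sign ranged as follows. For Notch2 with Hes1 loxP, Itgav ranged from -0.127 to 0.0097 and Calcr from -0.040 to 0.057. For Notch2 with Hes1 deletion, Itgb3 ranged from -0.14 to 0.109, and averaged over Hes1 states Itgb3 ranged from -0.091 to 0.033 and Itgav from -0.018 to 0.050. For Hes1 deletion in wild type cells, Acp5 ranged from -0.070 to 0.089 and Itgb3 from -0.122 to 0.047. In Notch2 mutant cells Itgb3 ranged from -0.126 to 0.123 and Itgav from -0.030 to 0.107, and averaged over genotypes Itgb3 ranged from -0.077 to 0.047. For the interaction, Itgb3 ranged from -0.099 to 0.152, Ptk2b from -0.039 to 0.042, Src from -0.052 to 0.0042 and Calcr from -0.0080 to 0.13. The cause was not tested.

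Counts of genes called over all tested depended on the setting. For Notch2 with Hes1 loxP the count was 104, with 242 by DESeq2, 657 without the filter and 26 to 289 with a library left out. Averaged over Hes1 states it was 253, with 420, 853 and 63 to 319. For Notch2 with Hes1 deletion it was 2, with 3, 138 and 0 to 5. For Hes1 deletion it was 5 in wild type cells, 5 in Notch2 mutant cells and 11 averaged, and 135, 110 and 184 without the filter. For the interaction it was 0, with 63 without the filter and 12 without wild type Hes1 deletion replicate 3.

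Whether the replicate numbers pair the samples was not settled. Of 18 pairs with the same number, the deviations from the group means correlated between -0.09 and 0.11, 1 of them over 0.1. Yet 8 of 12 libraries correlated best with their own number. Between the wild type and Notch2 mutant Hes1 loxP groups, same-number pairs gave 0.0980, 0.107 and 0.0766. Pairs with different numbers there lay between -0.0754 and -0.0202. With the replicate number as a block, Acp5 was at 0.29 averaged over Hes1 states (edgeR adjusted p = 0.0151) and no call among the 6 genes changed. The block moved the count of called genes to 325 averaged over Hes1 states and to 148 with Hes1 loxP. Depth limits Calcr most, with 388 to 559 counts per library.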
